A study of Mus musculus with 6 samples.

Results

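The nuclear-encoded genes of the mitochondrial respiratory chain were described in intestinal organoids, cultures of gut epithelial cells, from Apc Min mice. Members were the rows of the expression table whose symbol begins with Ndufa, Ndufb, Ndufc, Ndufs, Ndufv, Uqcr, Atp5 or Cox followed by a digit from 4 to 8, together with Cyc1 and Cycs, and they came to 90 of 24956 genes. No symbol had to be left out as a pseudogene. They comprised 36 subunits of complex I (7 core and 29 accessory), 9 of complex III, the single cytochrome c gene, 20 of complex IV, 15 of complex V, 8 complex I assembly factors, whose symbols also begin with Ndufa, and Atp5s. The genotype of both groups was Apc Min, a germline nonsense allele of Apc, the restraint on Wnt signalling, that gives intestinal tumours. The first group held 3 control organoid samples and the second 3 samples treated with DM-aKG, an ester form of α-ketoglutarate, a metabolite of the TCA cycle, that enters cells. The series title names Wnt signalling and differentiation in colorectal tumours as its subject. The sources used here do not give the dose, the time, what the controls received or the age of the mice. Its replicates are called biological, without saying whether they were separate animals or dishes of a shared line, so the p-values measure only the spread between these samples. Levels are in RPKM, a read count scaled by transcript length and library depth, at an estimated depth of 32700000 to 34300000 reads per library.

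The respiratory chain passes electrons from NADH and succinate through complexes I and II to ubiquinone, on through complex III and cytochrome c, and at complex IV to oxygen. Complexes I, III and IV pump protons across the inner mitochondrial membrane, and complex V, the ATP synthase, uses their return to make ATP. The catalytic hearts of complexes I, III and IV are partly encoded in mitochondrial DNA, while the subunits described here are encoded in the nucleus and imported. The 13 mitochondrially encoded subunits were not analysed here.

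The 6 libraries resembled epithelium without other tissue. All 8 epithelial markers (Epcam, Cdh1, Vil1, Krt8, Krt18, Krt19, Cdx1 and Cdx2) were at 34.9 RPKM or more in every library, and their sum was 2660 to 2720 RPKM in the controls and 3480 to 4390 in DM-aKG. The part of this difference in the results that follow was not tested. None of the 8 fibroblast and muscle markers, 5 immune markers or 5 endothelial and glial markers reached 1 RPKM in any library. The immune markers summed to 0.03 to 0.05 RPKM in the controls and 0.10 to 0.11 in DM-aKG, the fibroblast and muscle markers to 0.04 to 0.07 and 0.07 to 0.12, and the endothelial and glial markers to 0.30 to 0.42 and 0.42 to 0.51. In organoids made of several epithelial cell types, fewer cells of a type cannot be told apart from less RNA per cell.

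Respiratory chain genes were abundant in control organoids, but their levels within a complex were far from equal. The members held 3.18% to 3.23% of all RPKM in the controls and 3.23% to 3.30% in DM-aKG. The median control level was 74.3 RPKM over the complex I subunits, 171 over complex III, 226 over the 15 tested complex IV genes and 215 over complex V. The most abundant member was Atp5b, the catalytic β subunit of the ATP synthase, at 873 ± 8.70 RPKM (mean ± SD; every such value covers 3 libraries). Atp5a1, which encodes its partner α subunit, followed at 560.4 ± 8.16 RPKM. Both lie above each of the other ATP synthase genes. In complex III the lowest gene, Uqcrq, and the highest, Uqcrh, were 3.74-fold apart in the controls. In complex I the range ran from Ndufs5 at 4.60 ± 0.166 RPKM to Ndufa6 at 249 ± 9.33. The level of Ndufs5 is uncertain, because BC002163, an annotated gene, matches 60.8% of its mRNA at 99.4% identity. BC002163 was at 27.2, 29.0 and 28.2 RPKM in the controls and at 31.6, 36.9 and 34.4 in DM-aKG, so most signal of the pair was counted there. Copies by the same measure are annotated for 10 other members, Atp5c1, Atp5g2, Atp5h, Atp5k, Atp5l, Cox7c, Ndufb11, Ndufs3, Ndufs6 and Uqcrb. That of Cox7c was at 0.24 to 0.83 RPKM, and the best-matching copies of the other 9 have no values here, so how reads were divided with them is not known. Cycs, the carrier between complexes III and IV, stood at 58.4 ± 2.81 RPKM. The assembly factors, which build complex I and are not part of it, lay lower, with a median of 8.12 RPKM.

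**Figure D1:**
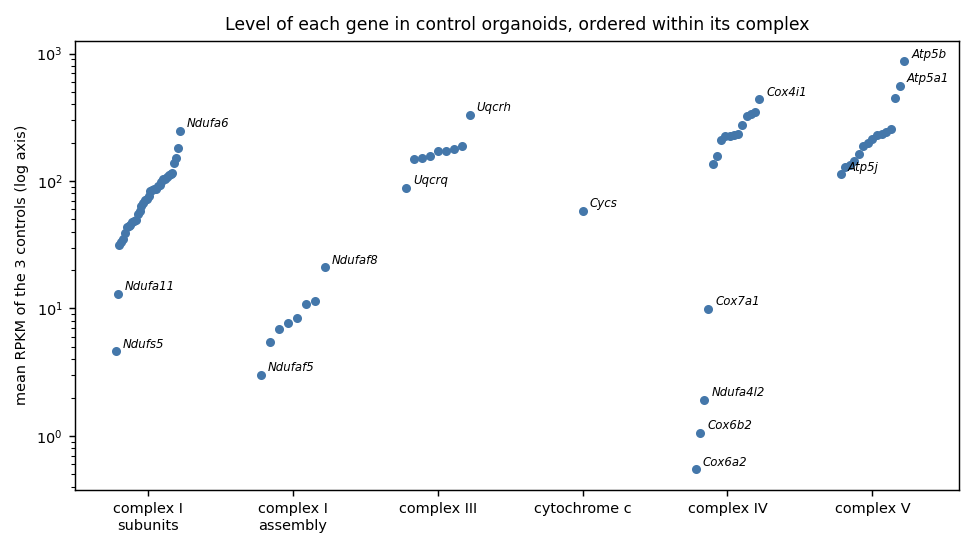
Mean RPKM of the 3 control libraries for each gene (points, log axis), ordered from low to high within its complex; genes at 0 in every control are not drawn. Atp5b lies highest at 873 RPKM, the assembly factors lie between 3.01 and 21.1, and Ndufs5 and the isoform genes Cox7a1, Ndufa4l2, Cox6b2 and Cox6a2 fall below their complexes.

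Small changes of single subunits went both ways, and the median over the members stayed near 0. Of 85 members that passed a filter of 1 RPKM on the mean over all libraries, 22 were higher and 21 lower in DM-aKG, and 42 did not pass the threshold (limma on log2(RPKM + 0.5), adjusted p under 0.05). That is 50.6% of the members, where 55.6% of all 10852 tested genes passed, 30.9% of them higher and 24.7% lower. The groups did not overlap for 55 members (29 higher and 26 lower), while 64.2% of all tested genes had groups that do not overlap. The median log2 fold change was 0.01 over the members and 0.02 over all tested genes, and after median centring -0.04 and -0.03. A change of at least 1.5-fold was reached by 4 members that passed the test, which is 4.71%, against 12.0% of all tested genes. None of those 4, Cox6b2, Ndufaf6, Cox7a1 and Ndufa4l2, was above 10 RPKM in both groups, and Ndufa4l2 fell short of that size without DM-aKG replicate 1. At a mean of 20 RPKM or more, 0 of 72 members changed 1.5-fold, and their median size of change was 0.12 on the log2 scale, beside 0.20 for the 3168 other genes at that level, of which 10.6% changed 1.5-fold. The balance of calls depended on scaling, with 18 higher and 27 lower after median centring, 19 and 25 after quantile normalization and 24 and 14 at an equal RPKM sum per library. For all tested genes the counts were 3354 and 2679, then 2790 and 3340 after median centring and 3812 and 2256 at an equal sum. Without control replicate 3 the lower calls were 11, and without DM-aKG replicate 3 they were 13.

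**Figure D2:**
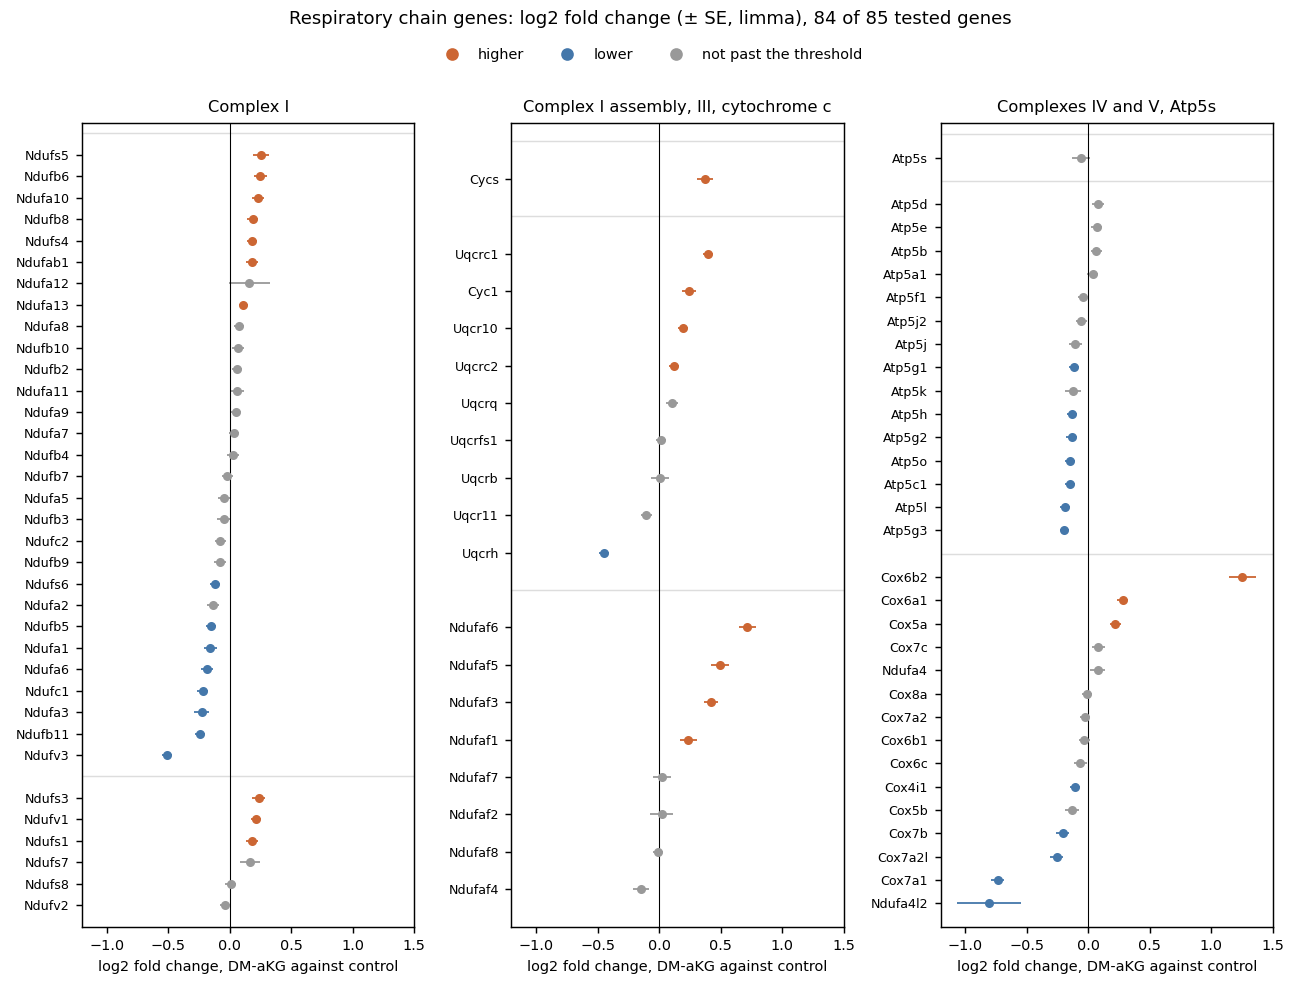
Log2 fold change of DM-aKG against control with its SE (limma) for 84 of the 85 tested members, sorted within class; grey lines part the classes, which are, from the bottom up, complex I core and accessory (left), assembly factors, complex III and cytochrome c (middle), and complexes IV, V and Atp5s (right). Orange points were higher, blue points lower and grey points not past the threshold; the points of complex V lie between -0.19 and 0.08, and Cox6b2 lies farthest out at 1.25.

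Summed over each complex, levels differed between the groups by a few percent. The complex I subunits summed to 2834, 2938 and 2915 RPKM in the controls and to 2838, 2942 and 2865 in DM-aKG, and the groups overlapped. Complex III summed to 1574, 1610.0 and 1579 RPKM and then to 1567, 1663 and 1631, and complex IV to 3126, 3176 and 3154 and then to 3155, 3203 and 3111. Those groups overlapped as well. Complex V was the exception, at 4079, 4154 and 4138 RPKM in the controls and 3984, 4025 and 3958 in DM-aKG, each DM-aKG library below each control. RPKM sums over all genes were also lower in DM-aKG, and as a share of them complex V held 1.11% ± 0.00879 in the controls and 1.10% ± 0.00326 in DM-aKG. On that scale complex I, slightly lower in RPKM, held 0.779% ± 0.0118 in the controls and 0.798% ± 0.0127 in DM-aKG, so its direction depends on the scaling. Complexes III and IV were higher as shares, with 0.426% to 0.429% and 0.845% to 0.853% in the controls and 0.433% to 0.458% and 0.868% to 0.881% in DM-aKG. No test was run on these sums.

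**Figure D3:**
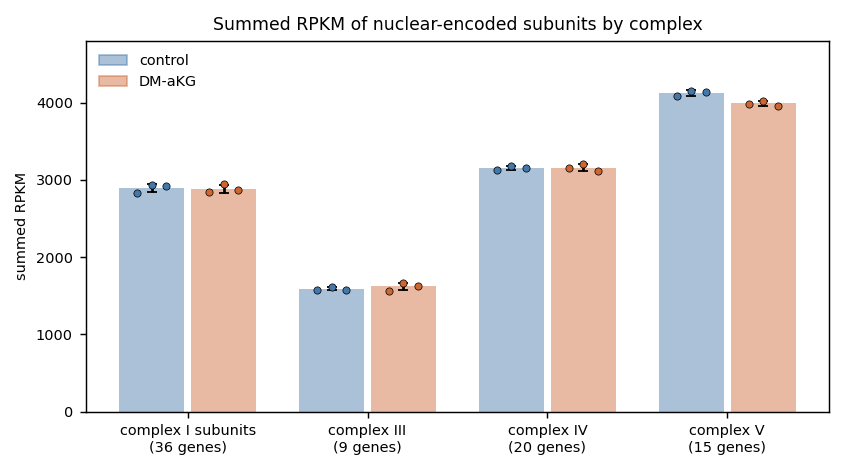
Summed RPKM of the nuclear-encoded subunits of each complex; bars are the mean and SD of 3 libraries, points the libraries, and the axis starts at 0. Control and DM-aKG bars are nearly level for complexes I, III and IV, and complex V is 4123 in control and 3989 in DM-aKG.

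In complex I, 3 genes of the catalytic core rose, and accessory genes went both ways. Over all 36 subunits 10 were higher and 8 lower, and after median centring 8 and 10. The core subunits carry the flavin and the iron-sulfur clusters, and 3 of 7 rose with 0 lower by limma, also 0 at an unadjusted p under 0.05 (median log2 fold change 0.16). The core counts were 3 and 1 after median centring, 4 and 1 with array weights and 4 and 1 without DM-aKG replicate 1. Ndufv1, the flavoprotein that oxidises NADH, was at 80.6, 83.8 and 84.0 RPKM in the controls and 93.4, 96.8 and 97.5 in DM-aKG. It rose by 0.21 ± 0.04 on the log2 scale (SE; adjusted p = 0.00295 by limma), with no overlap between the groups. Ndufs3, a core subunit of the arm that leads electrons to ubiquinone, rose from 90.8 ± 3.17 to 106.9 ± 6.93 RPKM (adjusted p = 0.00914 by limma). The annotated gene Gm12251 matches 75.7% of its mRNA at 98.6% identity, which makes its level less certain. Ndufs1, the largest core subunit, was at 45.4, 44.8 and 43.0 RPKM and then at 53.3, 49.5 and 48.1 (adjusted p = 0.0171 by limma). Ndufs1 no longer passed when control replicate 3 was left out (adjusted p = 0.0736 by limma) or under quantile normalization (0.0587). Ndufs7, Ndufs8 and Ndufv2 did not pass, with log2 fold changes from -0.04 to 0.16 and overlapping groups.

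Of 29 accessory subunits of complex I, 7 were higher and 8 lower, with a median of 0.03, which was -0.02 after median centring and -0.03 after quantile normalization. Higher calls came to 4 without control replicate 1 or DM-aKG replicate 2, and lower calls to 5 without control replicate 3 or DM-aKG replicate 3. Ndufv3, an accessory subunit that sits beside the NADH-oxidising flavoprotein, changed most. It was at 43.3, 43.2 and 44.6 RPKM in the controls and at 29.7, 31.4 and 30.5 in DM-aKG. The libraries of each group lay close together and far from the other group, and the gene fell by 0.51 ± 0.04 on the log2 scale (adjusted p = 5.87e-05 by limma). Ndufv3 therefore went down while Ndufv1, its neighbour in the same module, went up. Ndufb11, a subunit of the membrane arm, fell from 103.0 ± 0.316 to 87.0 ± 3.03 RPKM (adjusted p = 0.00167 by limma). Ndufa3 fell by 0.23 ± 0.06 on the log2 scale (adjusted p = 0.0152 by limma; 0.0503 without control replicate 1). The other accessory genes that fell were Ndufc1, Ndufa6, Ndufa1, Ndufb5 and Ndufs6, by 0.22 to 0.12 on the log2 scale. Ndufb6, also of the membrane arm, rose from 63.4 ± 1.41 to 75.6 ± 4.64 RPKM (adjusted p = 0.00462 by limma), and Ndufa10 rose from 138 ± 4.47 to 162 ± 8.51 RPKM. Ndufs5, with the copy named above, rose by 0.25 ± 0.07 on the log2 scale and lost the call without control replicate 1 (adjusted p = 0.0502 by limma) or DM-aKG replicate 2 (0.0518). Its sum with BC002163 was 31.6, 33.8 and 32.8 RPKM in the controls and 36.8, 43.0 and 39.9 in DM-aKG, again without overlap. Both genes kept nearly the same proportion to each other in every library. The sum therefore repeats the pattern of Ndufs5 and is no separate support, and it cannot show which gene the reads came from. Ndufb8, Ndufs4, Ndufab1 and Ndufa13 were the remaining accessory genes that rose, by 0.11 to 0.19. Ndufa12 scattered most, at 68.9, 79.3 and 109.8 RPKM in the controls and 99.0, 80.6 and 104 in DM-aKG.

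The complex I assembly factors gave the larger rises among Nduf genes. Of the 8 with Ndufaf symbols, 4 rose, 0 fell and 4 did not pass by limma (median 0.13). At an unadjusted p under 0.05, 1 was lower, Ndufaf4. After median centring and after quantile normalization 1 was lower. Complex I factors with other symbols are counted below with those of other complexes. Of these, Tmem186 fell by 0.30 ± 0.06 on the log2 scale (adjusted p = 0.00364 by limma), while Ecsit and Timmdc1 rose by 0.36 and 0.15. Acad9, Foxred1, Nubpl and Tmem126b did not pass. Ndufaf6, needed for an early step in building the complex, was at 5.11, 5.77 and 5.42 RPKM in the controls and at 8.78, 8.92 and 10.1 in DM-aKG. All DM-aKG libraries were above all controls, and the gene rose by 0.72 ± 0.07 on the log2 scale (adjusted p = 1.50e-04 by limma). Ndufaf5, which hydroxylates an arginine of a core subunit, rose from 3.01 ± 0.231 to 4.45 ± 0.284 RPKM (adjusted p = 0.00108 by limma), and Ndufaf3 from 7.76 ± 0.440 to 10.6 ± 0.522 RPKM (adjusted p = 8.03e-04 by limma). Ndufaf1 rose by 0.24 ± 0.07. In contrast, Ndufaf2, Ndufaf4, Ndufaf7 and Ndufaf8 had log2 fold changes from -0.15 to 0.03 and overlapping groups.

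Complex III held subunits that moved in opposite directions in the same libraries. Uqcrh, the small acidic hinge protein at the docking site of cytochrome c, was at 329, 335 and 327 RPKM in the controls and at 244, 247 and 235 in DM-aKG. The groups lay far apart, and Uqcrh fell by 0.45 ± 0.04 on the log2 scale (adjusted p = 1.16e-04 by limma). Uqcrc1, a core subunit on the matrix side, was at 152, 154 and 152 RPKM and then at 193, 202 and 209. It rose by 0.40 ± 0.04 on the log2 scale (adjusted p = 2.29e-04 by limma), again without overlap. Cyc1, the haem-bearing cytochrome c1 that hands electrons to cytochrome c, rose from 188 ± 3.30 to 223 ± 15.9 RPKM (adjusted p = 0.00782 by limma). Uqcr10, a small membrane subunit, rose from 171 ± 5.23 to 196 ± 4.24 RPKM (adjusted p = 0.00561 by limma), and Uqcrc2, the second core subunit, from 172 ± 1.79 to 187 ± 7.49 RPKM. The Rieske iron-sulfur protein gene Uqcrfs1 had 157 ± 1.28 RPKM in the controls and 158 ± 5.19 with DM-aKG (log2 fold change 0.01 ± 0.04), and Uqcrb, Uqcrq and Uqcr11 did not pass either. In all, 4 of 9 rose and 1 fell, with a median of 0.11 that stayed above 0 under each scaling; after median centring 3 were higher and 2 lower, and after quantile normalization 4 and 2. Cycs, also known as a trigger of the apoptosome once it leaves the mitochondrion, was at 61.5, 56.2 and 57.5 RPKM in the controls and at 69.8, 80.8 and 76.8 in DM-aKG. Each DM-aKG library exceeded each control, and Cycs rose by 0.37 ± 0.06 on the log2 scale (adjusted p = 0.00182 by limma).

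**Figure D4:**
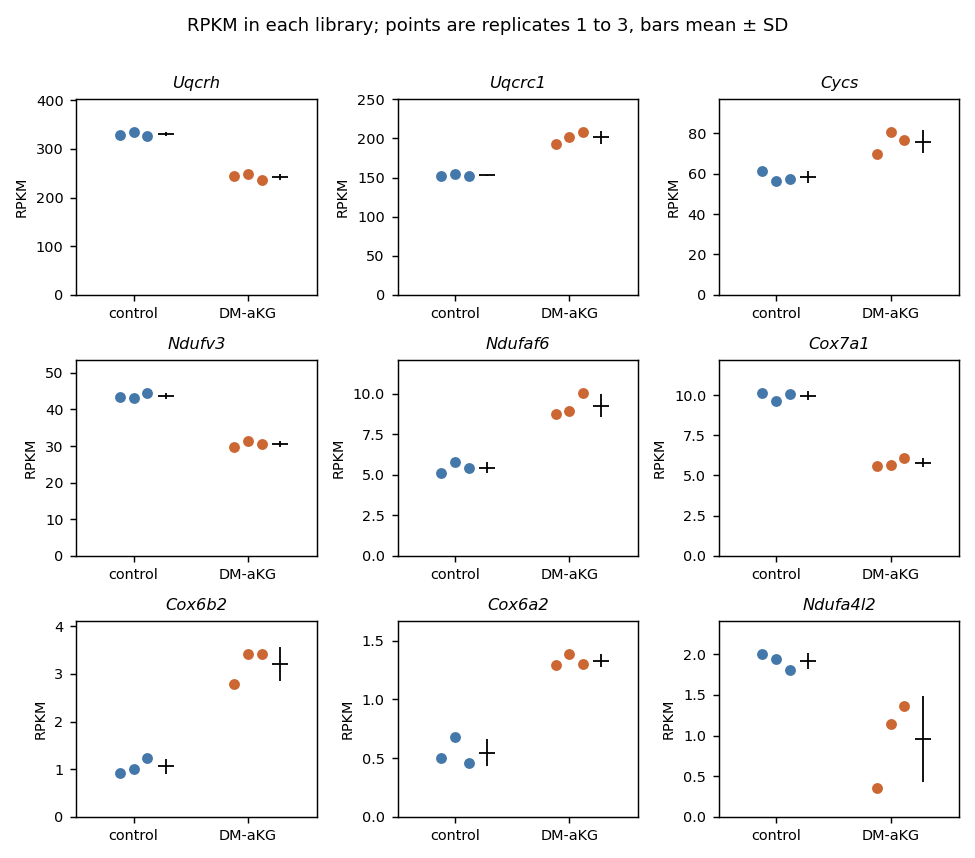
RPKM in each library (points; control blue, DM-aKG orange; each axis starts at 0) with the mean and SD (black) for 9 genes with large changes. In every panel the 3 DM-aKG points lie on a single side of the 3 control points; the DM-aKG points of Ndufa4l2 spread from 0.36 to 1.37 RPKM.

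The promoters of many respiratory chain genes carry sites for NRF1 and GABPA, transcription factors known to drive genes of mitochondrial function. Those of 4 members that changed are shown as examples. They are RefSeq windows on GRCm38.p6, from 250 bases before to 50 after the annotated start, 5′ to 3′ on the strand of the gene. Capitals mark matches on either strand to the motif searched for NRF1 (GCGCANGCG), GABPA (CCGGAAGT), YY1 (AAGATGGCG) or the oestrogen-related receptor α (TCAAGGTCA). Uqcrc1 and Cycs rose, and Uqcrh and Atp5g3 fell:
Uqcrc1 (chr9:108936398-108936697, plus strand): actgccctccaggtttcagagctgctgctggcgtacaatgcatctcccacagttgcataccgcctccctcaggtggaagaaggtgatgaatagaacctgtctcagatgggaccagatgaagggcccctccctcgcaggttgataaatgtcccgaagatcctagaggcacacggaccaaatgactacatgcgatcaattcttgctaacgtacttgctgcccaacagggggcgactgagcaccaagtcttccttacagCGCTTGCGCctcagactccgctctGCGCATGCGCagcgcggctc
Cycs (chr6:50566520-50566819, minus strand): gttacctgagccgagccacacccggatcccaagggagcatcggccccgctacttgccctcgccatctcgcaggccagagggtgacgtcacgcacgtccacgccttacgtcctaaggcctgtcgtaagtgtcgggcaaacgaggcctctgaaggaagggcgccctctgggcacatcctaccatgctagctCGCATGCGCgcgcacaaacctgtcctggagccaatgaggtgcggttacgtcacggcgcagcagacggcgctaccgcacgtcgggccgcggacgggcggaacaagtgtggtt
Uqcrh (chr4:116075021-116075320, minus strand): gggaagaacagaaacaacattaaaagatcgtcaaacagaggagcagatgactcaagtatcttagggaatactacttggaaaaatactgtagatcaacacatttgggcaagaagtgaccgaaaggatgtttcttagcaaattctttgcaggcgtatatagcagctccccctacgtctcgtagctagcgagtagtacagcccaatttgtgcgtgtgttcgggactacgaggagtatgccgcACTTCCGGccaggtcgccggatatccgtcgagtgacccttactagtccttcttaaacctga
Atp5g3 (chr2:73911277-73911576, minus strand): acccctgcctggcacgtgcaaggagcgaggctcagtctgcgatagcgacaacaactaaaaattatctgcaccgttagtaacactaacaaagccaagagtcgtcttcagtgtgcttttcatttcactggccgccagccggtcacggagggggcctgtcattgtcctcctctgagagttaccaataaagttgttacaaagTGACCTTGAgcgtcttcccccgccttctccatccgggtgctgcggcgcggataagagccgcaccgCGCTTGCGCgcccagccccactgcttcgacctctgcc
Uqcrc1 holds 3 NRF1 matches, of which 2 overlap as the motif is nearly a palindrome, and Cycs holds 1. Uqcrh holds 1 GABPA match, and Atp5g3 holds 1 match each for NRF1 and the oestrogen-related receptor.

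The NRF1 letters were common among the members. Of 74 members with a RefSeq window, 21 (28.4%) held the NRF1 letters in at least 1 window, beside 6.25% of all 32851 windows and 7.03% of 27025 genes. The GABPA letters were in 5 members (6.8%) and 4.31% of all genes, and the YY1 letters in 8 members (10.8%) and 1.64% of all genes. Those of the oestrogen-related receptor were in 1 member (1.4%) and 0.47% of all genes. The 27025 genes were not limited to tested genes, so these shares do not set the members beside other expressed genes. Of the 21 members with the NRF1 letters, 5 were higher and 8 lower, with a median log2 fold change of -0.10. Of 51 tested members without them, 13 were higher and 11 lower, with a median of 0.01. Of the 5 members with the GABPA letters 1 was higher and 2 lower, and of the 8 with the YY1 letters 1 was higher and 2 lower. Members with the NRF1, GABPA or YY1 letters thus went in both directions, and the matches describe letters, not binding.

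In complex IV, the large changes were in isoform genes of low level, and the abundant isoforms moved less. Complex IV takes several of its nuclear subunits from isoform pairs, with a form found in most tissues and another best known from heart and muscle, testis or lung. Cox6b2, the testis form of subunit VIb, was at 0.93, 1.01 and 1.24 RPKM in the controls and at 2.80, 3.41 and 3.43 in DM-aKG. The groups lay far apart, and Cox6b2 rose by 1.25 ± 0.11 on the log2 scale (adjusted p = 9.13e-05 by limma), the largest change of a tested member. It still made up only 0.315% ± 0.0462 of the RPKM of Cox6b1 and Cox6b2 in control and 0.969% ± 0.0909 in DM-aKG, as Cox6b1 was at 336 ± 7.45 and 328 ± 11.1 RPKM (log2 fold change -0.03 ± 0.05). At the estimated depth, Cox6b2 rested on about 17 to 22 reads per control library and 53 to 62 per DM-aKG library. Cox6a2, the heart and muscle form of subunit VIa, lay below the filter, at 0.50, 0.68 and 0.46 RPKM in the controls and 1.29, 1.39 and 1.30 in DM-aKG. It too was higher in each DM-aKG library, and without the filter its log2 fold change was 0.81 ± 0.10 (adjusted p = 0.00170 by limma). Cox6a2 rested on only about 10 to 15 reads per control library and 29 to 31 per DM-aKG library. Cox6a1, its ubiquitous partner, was at 345, 344 and 347 RPKM and then at 402, 431 and 425. Cox6a1 rose by 0.28 ± 0.04 on the log2 scale (adjusted p = 0.00141 by limma), so both forms of this subunit were higher in DM-aKG.

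The heart and muscle form of subunit VIIa went the other way. Cox7a1 was at 10.2, 9.66 and 10.1 RPKM in the controls and at 5.59, 5.66 and 6.11 in DM-aKG. It fell by 0.74 ± 0.05 on the log2 scale (adjusted p = 3.95e-05 by limma), with no overlap. Cox7a2, the form of most tissues, had 136 ± 2.04 RPKM in the controls and 134 ± 5.27 with DM-aKG (log2 fold change -0.03 ± 0.04), and the share of Cox7a1 in the sum of both went from 6.82% ± 0.263 to 4.15% ± 0.301. Cox7a2l, a relative that helps join complexes III and IV into supercomplexes, fell from 234 ± 9.13 to 196 ± 8.87 RPKM (adjusted p = 0.00366 by limma). Ndufa4l2, a paralogue of Ndufa4 known as a target of hypoxia-inducible factor, was at 2.01, 1.94 and 1.81 RPKM in the controls and at 0.36, 1.14 and 1.37 in DM-aKG. All 3 DM-aKG libraries were below the controls but far apart from each other, and it passed the filter only through its control level. It fell by 0.81 ± 0.26 on the log2 scale (adjusted p = 0.0313 by limma), and the call was lost without any of the controls (adjusted p from 0.0708 to 0.0847 by limma), under quantile normalization (0.0643) and without the filter (0.0714). Without DM-aKG replicate 1, its lowest library, the log2 fold change was -0.47 ± 0.09 (adjusted p = 0.00326 by limma), a change of less than 1.5-fold. Ndufa4 itself, once counted as a complex I subunit and now placed in complex IV, was at 226 ± 4.09 and 239 ± 19.6 RPKM.

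Among the other complex IV genes, Cox5a rose from 225 ± 3.30 to 262 ± 11.5 RPKM (adjusted p = 0.00498 by limma), and Cox7b fell from 158 ± 2.01 to 136.5 ± 8.66 RPKM (adjusted p = 0.0111 by limma). Cox4i1, the subunit through which ATP is known to act on the enzyme, was at 428, 447 and 434 RPKM in the controls and 407, 402 and 403 in DM-aKG. It fell by 0.11 ± 0.04 on the log2 scale with an adjusted p just inside the threshold (limma, 0.0496), and the call was lost at an equal RPKM sum per library (0.153) and under 8 other alternatives. Its partner Cox4i2, a hypoxia-responsive form, was listed at 0 in 5 libraries and at 0.04 RPKM, about 1 read, in DM-aKG replicate 3. Cox8b, the heart and muscle form of subunit VIII, was likewise at 0 apart from 0.08 RPKM in that library, and Cox7b2 and Cox8c were listed at 0 in all 6. Cox8a, the ubiquitous form, was at 327 ± 7.32 and 324 ± 2.82 RPKM. Of the 15 tested complex IV genes 3 rose and 5 fell (median -0.03; 0.01 at an equal RPKM sum). The lower calls came to 3 without the filter, and to 3 when any single control library was left out.

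Complex V was the complex in which 0 genes rose by limma, also 0 at an unadjusted p under 0.05. The ATP synthase joins a catalytic head to a ring of c subunits in the membrane, and 7 of its 15 genes fell (median -0.11, and -0.07 to -0.16 under the scalings). The catalytic genes did not pass the test: Atp5a1 was at 552, 568 and 562 RPKM in the controls and 571, 580 and 570.2 in DM-aKG, and Atp5b at 863, 877 and 879 and then at 907, 921 and 913. Both were higher in each DM-aKG library by small amounts, with log2 fold changes of 0.03 ± 0.04 and 0.07 ± 0.04; after median centring that of Atp5a1 was -0.01, and under quantile normalization Atp5a1 was called higher at 0.23 and Atp5b at 0.24. The largest fall was that of Atp5g3, a gene of the c ring, at 451, 451 and 449 RPKM in the controls and 395, 391 and 394 in DM-aKG. The replicates lay close together, and Atp5g3 fell by 0.19 ± 0.04 on the log2 scale (adjusted p = 0.00403 by limma). Atp5g1, Atp5g2 and Atp5g3 encode the same mature c subunit with different import sequences, and Atp5g3 held 55.7% ± 0.540 of their RPKM in control and 54.6% ± 0.462 in DM-aKG. Atp5g1 fell by 0.11 ± 0.04 (adjusted p = 0.0458 by limma) and Atp5g2 by 0.13 ± 0.04 (0.0348) on the log2 scale, and both calls were lost under several alternatives, such as an equal RPKM sum per library (0.188 and 0.0945). Atp5g2 has an annotated copy identical over its whole mRNA, so its level is uncertain. Atp5l, a small membrane subunit, fell from 215 ± 2.67 to 188 ± 4.04 RPKM (adjusted p = 0.00424 by limma), and 9 annotated genes match at least 50% of its mRNA. Atp5c1, the central shaft of the motor, fell from 197.5 ± 0.692 to 178 ± 5.72 RPKM (adjusted p = 0.0143 by limma; 0.0582 without control replicate 3). Atp5o and Atp5h, of the outer stalk, fell by 0.15 and 0.13. With an equal RPKM sum per library 3 complex V genes were lower. Without control replicate 3 they were 2, without DM-aKG replicate 3 they were 3, and without control replicate 2 or DM-aKG replicate 2 they were 4. Atp5s, whose symbol matches the rule though it is no subunit of the synthase, was at 5.06 ± 0.229 and 4.85 ± 0.430 RPKM.

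Change among the members went with transcript length. Of 53 members whose protein-coding transcripts have a median length of at most 1 kilobase, 6 were higher (11.3%) and 16 lower (30.2%), while of 31 longer members 16 were higher (51.6%) and 4 lower (12.9%). Among other tested genes of at most 1 kilobase, 25.5% were higher and 33.5% lower, and among longer ones 32.0% and 23.6%. Across the 84 members with a length, Spearman's rho between length and log2 fold change was 0.28, and across 10384 other genes it was 0.06; genes share libraries and are no replicates, so both are descriptions. Among other genes of at most 600 bases 16.8% were higher and 47.1% lower, while of 27 such members 5 were higher and 8 lower. Uqcrh, Cox7a1, Ndufa3 and Ndufv3, with median lengths of 474, 439, 433 and 645 bases, are among the short genes that fell. Uqcrc1, Cyc1, Cycs, Ndufs1 and Ndufaf6 are among the long genes that rose, while Cox6b2, Cox6a1 and Uqcr10 are short genes that rose. For some members the side of 1 kilobase depends on the transcript used. The mRNA taken for the copy search has 1582 bases for Ndufv3 and 1249 for Ndufc1, which fell, and 680 for Ndufb8, which rose. Their median lengths are 645, 782 and 1411 bases. Whether length or the handling of short fragments plays a part in these changes was not tested.

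**Figure D5:**
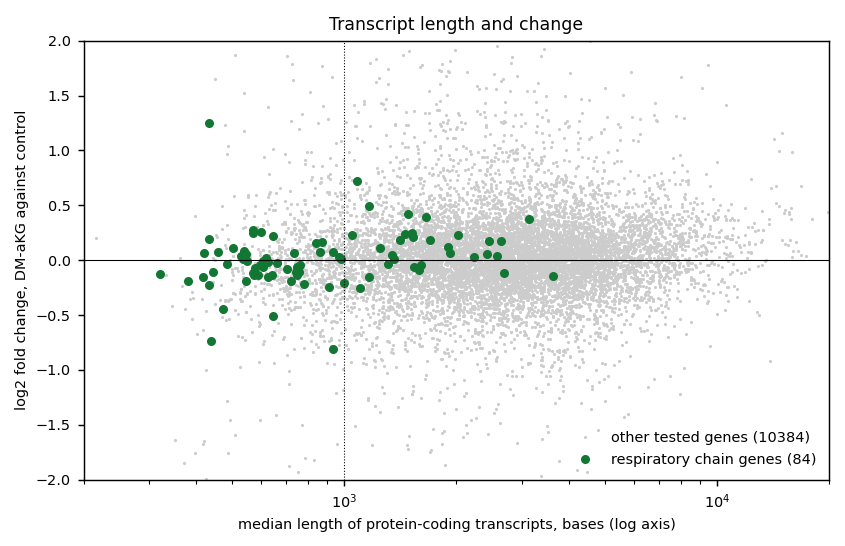
Log2 fold change of DM-aKG against control against the median length of the protein-coding transcripts of each gene (log axis, dotted line at 1000 bases) for 84 members (green) and 10384 other tested genes (grey); 76 points lie outside the axes. Most members to the left of the line lie at or below 0 and most to its right above 0.

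Other genes of the pathway and of mitochondria also went both ways. Among all tested genes 55.6% were called, 30.9% higher and 24.7% lower. All 4 genes of complex II, succinate dehydrogenase, changed, with 2 higher and 2 lower. Sdhb, the iron-sulfur subunit on the matrix side, rose from 139 ± 2.33 to 171 ± 6.20 RPKM (adjusted p = 8.73e-04 by limma) and Sdha also rose, whereas the membrane anchors Sdhc and Sdhd fell, the latter from 181 ± 1.30 to 154 ± 4.99 RPKM (adjusted p = 0.00203 by limma). After median centring 1 was higher, and leaving out any control gave 1 higher and 1 lower. Of 38 tested assembly factors for all complexes without the Ndufaf genes, 12 rose and 6 fell (47.4% called, median 0.04). After median centring 9 were higher and 13 lower. Cox18 changed most in this list, with a rise from 5.69 ± 0.140 to 9.68 ± 1.725 RPKM (adjusted p = 0.0017 by limma). Cox15, which makes haem a for complex IV, rose from 12.0 ± 0.294 to 14.5 ± 0.366 RPKM (adjusted p = 0.00161 by limma). Cox20, which handles the copper-binding subunit of complex IV, fell from 28.0 ± 2.26 to 19.4 ± 0.835 RPKM (adjusted p = 4.34e-04 by limma). Of 13 tested genes of coenzyme Q synthesis 6 rose and 2 fell (61.5% called, median 0.06). Without control replicate 1 or DM-aKG replicate 2, 4 were higher. Coq7 rose from 9.01 ± 0.292 to 11.9 ± 0.243 RPKM and Coq6 from 11.4 ± 0.229 to 16.1 ± 1.36 RPKM, both hydroxylases of the quinone ring. The largest change of this list was a fall, that of Pdss1 from 15.4 ± 0.660 to 9.51 ± 2.27 RPKM (adjusted p = 0.0039 by limma). Coq8a also fell, with overlapping groups.

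Of 17 regulators of mitochondrial genes, 4 were higher and 6 lower (58.8% called, median -0.15), where 55.6% of all tested genes were called. They were 2 and 8 after median centring and 1 and 8 under quantile normalization, and 2 were higher when any control was left out. Over the 11 regulators with a mean of at least 5 RPKM, 4 were higher and 5 lower, with a median near 0. The largest change of this list was the fall of Esrrg, from 2.22 ± 0.135 to 0.927 ± 0.354 RPKM (adjusted p = 0.0019 by limma). Esrrg passed the filter only through its control level. Tfam, the factor that packages and transcribes mitochondrial DNA, fell from 14.5 ± 0.511 to 11.3 ± 0.768 RPKM (adjusted p = 0.00172 by limma). Gabpb1, a partner of GABPA, rose from 4.25 ± 0.0874 to 5.97 ± 0.172 RPKM (adjusted p = 3.11e-04 by limma). Its more abundant paralogue Gabpb2 went the other way, from 13.9 ± 0.125 to 11.5 ± 0.659 RPKM (adjusted p = 0.00357 by limma). The factors whose motifs were searched are added for that reason. Nrf1 was at 3.44, 3.83 and 3.49 RPKM in the controls and 3.73, 2.49 and 2.50 in DM-aKG, with overlap, and did not pass the test (adjusted p = 0.111 by limma). Gabpa fell from 12.8 ± 1.19 to 9.73 ± 0.332 RPKM and Esrra, the oestrogen-related receptor α, from 45.4 ± 1.70 to 38.6 ± 1.82, while Yy1 rose from a mean of 33.5 RPKM to 37.3. Of 24 mitochondrial proteins outside the chain, such as import and channel proteins, 11 were higher and 3 lower (58.3% called, median 0.09). After median centring 6 were higher and 7 lower. Without control replicate 1, control replicate 3 or DM-aKG replicate 2, 5 to 7 were higher. Timm17a, of the inner membrane import channel, rose from 26.8 ± 0.123 to 33.8 ± 2.85 RPKM, and Opa1, which fuses inner membranes, from 20.2 ± 0.337 to 23.3 ± 0.447 RPKM. The largest change of this list was a fall, that of Slc25a4 from 39.6 ± 3.03 to 30.3 ± 2.84 RPKM (adjusted p = 0.0045 by limma). Atpif1 and Phb also fell.

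On GRCm38, the assembly that mm10 names, Uqcrh lies on chromosome 4 from 116066965 to 116075071 (minus strand) and Uqcrc1 on chromosome 9 from 108936633 to 108949623 (plus strand). Ndufv3 lies on chromosome 17 from 31520115 to 31531331 (plus strand) and Ndufaf6 on chromosome 4 from 11051045 to 11076205 (minus strand). Cycs lies on chromosome 6 from 50562563 to 50566538 (minus strand). Cox6b2, at 4751792 to 4753094 (minus strand), and Cox7a1, at 30184144 to 30186078 (plus strand), lie on chromosome 7 and moved in opposite directions. All are annotated as protein-coding genes.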

How the data were processed

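RNA-seq of 3 control and 3 DM-aKG organoid samples was analysed, grouped by sample title. The authors deposited RPKM values with 2 decimals for 24956 genes. Per the labels' protocols, a Qiagen kit gave the RNA and TruSeq reagents the libraries. The tools CASAVA 1.8, HISAT2 2.0.4 and Partek and the mm10 build are named per the submitters' processing notes. The sources used here do not give their roles, the annotation, the strand or how reads with several matches were counted.

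Genes with a mean of at least 1 RPKM (10852) were compared as log2(RPKM + 0.5) with limma 3.58.1 in R 4.3.3 (lmFit, eBayes with trend, two-sided, no replicate term), adjusted by Benjamini-Hochberg over all of them, with calls at an adjusted p under 0.05. The scale understates changes of low genes. The procedure was tested on simulated data. The depth estimate rests on short RNA genes (up to 150 bases), in which 1 read is a fixed step: 90.9% to 94.4% of values between 2 and 5 reads came out whole within 0.05 reads, where even spacing would give 10%. Read numbers quoted use the estimate and the mRNA length, and carry counting error only.

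Members and lists were chosen with earlier results of these data known. Named genes were, per class, the 3 largest rises and falls among called members, all called members with a 1.5-fold change, fixed isoform sets and key catalytic genes, and 2 genes with the smallest p from each other list; further members are given to account for the class. Positions and transcript lengths come from GENCODE vM21 (89 of 90 members had a single position). Copies are other GENCODE genes with a blastn 2.17.0 match of at least 95% identity over at least 50% of a member's mRNA; shorter matches were not counted. Promoters come from RefSeq. The values of 1 member are not reported here, though counts and sums include it. Alternatives covered the pseudocount, filter, scaling, variance trend, array weights, a replicate block and each library left out. Python 3.11.15, pandas 2.3.3, numpy 2.4.6, scipy 1.17.1 and matplotlib 3.10.9 were used.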

Additional observations from a re-analysis of the deposited data

How the results depend on the processing

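Counts are given as higher and lower. Across all tested genes the counts, 3354 and 2679, stayed within 1.5 times under every alternative run. For the members (22 and 21), leaving out single libraries gave 11 to 25 lower. For complex I subunits (10 and 8), quantile normalization gave 6 higher, and leaving out single libraries gave 5 to 11 lower. For complex III (4 and 1), 2 were lower after median centring, quantile normalization and array weights. For complex IV (3 and 5), 3 were lower without the filter, and 3 to 6 when single libraries were left out. For complex V (0 and 7), quantile normalization gave 2 higher, an equal RPKM sum gave 3 lower, and leaving out single libraries gave 0 to 1 higher and 2 to 7 lower. For the Ndufaf assembly factors (4 and 0), 1 was lower after median centring, quantile normalization and array weights, and 0 to 1 when single libraries were left out. The causes of these shifts were not tested.

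Samples with the same number correlated at -0.11 to 0.01 in their deviations from the group means, and those with unlike numbers at -0.03 to 0.10. With 3 samples per group, these values cannot show whether the samples were set up as pairs. With the replicate block the members gave 21 higher and 15 lower, and complex V 3 lower. Array weights added 14 member calls and leaving out DM-aKG replicate 1 added 9; no member's call changed direction under any alternative run. Of the named genes' values under alternatives, 35 lost and 2 gained a call and none that was called reversed. Counts of 17 to 22 reads, as for Cox6b2 in control, or 10 to 15, as for Cox6a2, limit precision for the low isoforms.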
